A study of Sus scrofa with 54 samples.

Results

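The ileum of piglets reared in isolators was compared with that of piglets reared by a sow outdoors, at 28 days of age. By the labels of the samples, the comparison holds 6 isolator-reared (IR) and 6 outdoor-reared (OUT) piglets, which are 12 of the 54 piglets of the series. Each array came from 1 piglet. All piglets were Large White x Landrace offspring of sows inseminated by the same boar, and the series holds 6 isolator-reared, 6 outdoor-reared and 6 indoor sow-reared (IN) piglets at each of days 5, 28 and 56. IR piglets were born to sows of the indoor facility and were moved soon after birth to individual isolators. They received the antibiotics Baytril and Amoxinsol 50 every day and drank milk replacer until day 28. OUT piglets were born in the outdoor facility and suckled their own sow until day 28. IN piglets suckled their own sow in the indoor facility and enter below only to show how the comparison of IR with OUT stands against them. By the study's methods IR and IN piglets were taken from the same indoor sows, while OUT piglets came from other sows. No label names the litter, so the fits treat all piglets as unrelated. The IR and OUT groups thus differ at once in housing, antibiotics, feed and the sow's facility, and these cannot be told apart. RNA came from whole ileal wall.

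The ileum is the last stretch of the small intestine, where an absorptive epithelium lies over a lamina propria rich in macrophages, lymphocytes and antibody-secreting cells. Enterocytes can take up cholesterol and fat from the gut lumen or make them, and the transcription factors SREBP-1 and SREBP-2 switch on the genes of synthesis when cellular sterol is low. Suckled milk is rich in fat and carries the mother's antibodies, while bacteria of the lumen and their products act on epithelial and immune cells, among other ways through interferon-induced genes, class I molecules and chemokines.

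Values are deposited log2 intensities, so a difference of 1 is a 2-fold change, and differences are IR minus OUT. Where 3 values are given for a group, they are those of its lowest piglet, its median and its highest piglet. The day 28 arrays had medians of 3.98 to 4.1 and correlated with each other at 0.916 to 0.994, and the 3' to 5' difference of the GAPDH control probesets was 0.23 to 0.46 in IR and 0.16 to 0.81 in OUT arrays. The OUT piglets numbered 1 and 2 stood apart from the other 4. They had the highest 3' to 5' difference of GAPDH among the 18 arrays, 0.67 and 0.81, while that of actin was 0.45 and 1.01 in them against 0.34 to 1.39 in the other OUT piglets, and the part of RNA quality in the results was not tested. Their mean levels of the cholesterol synthesis genes (6.22 and 6.42), interferon-induced genes (7.18 and 6.86), T and NK cell markers (3.69 and 4.01), macrophage and dendritic cell markers (6.16 and 6.28) and proliferation genes (6.43 and 5.62) were the lowest of the 6 OUT piglets, and their levels of drug and steroid metabolism genes were the highest. Results are therefore also given without them, in an analysis chosen after seeing the data. With 6 arrays a group, the number of arrays limits the precision.

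In limma's moderated test over the 3 groups of day 28, 37 of 23999 probesets passed an unadjusted p under 0.01 with a change of 2-fold or more, which is 0.154% of those tested. Of these, 25 (0.104%) were higher and 12 (0.05%) lower in IR than in OUT piglets. No probeset passed Benjamini-Hochberg adjustment at 0.05. The lowest adjusted p in limma was 0.0958, for PDK4, and all other adjusted p-values were at least 0.999. An unadjusted p under 0.05 was found for 620 probesets (2.58%), 354 higher and 266 lower. That is fewer than the 1 in 20 that chance alone would give if no probeset differed. Permutation p-values of single genes below are exact, two-sided and not adjusted for the number of genes. Where the IR and OUT piglets do not overlap, this exact permutation p is always 0.00216, however narrow the gap, so it only restates the lack of overlap. Below, rose, fell, called and passed refer to the first, unadjusted criterion. In 11 of the 37 probesets the 6 IR and the 6 OUT piglets did not overlap, against 64 probesets (0.267%) among all tested. The 37 carry 30 different names, and 1 has none. Leaving out OUT piglets 1 and 2 gave 33 calls, 17 higher and 16 lower, and 13 of the 37 were among them, while all 37 kept their sign and 30 still differed by 2-fold or more. All tissue was bulk, so fewer cells of a type and less RNA per cell cannot be told apart in any value below.

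Genes of cholesterol synthesis were higher in IR piglets. At the brightest probeset of each gene all 11 measured members had a positive difference, with a median of 1.47, while over all probesets 50.9% were positive and the median was 0.003. CYP51, MSMO1 and SC5D, which modify the sterol after lanosterol is made, rose in IR piglets, and none of the 11 fell. At the brightest probeset of the 6765 named genes, the share called higher was 0.222% and the share called lower 0.103%. CYP51 was at 10.77, 11.75 and 11.99 in IR and at 8.52, 10.48 and 11.45 in OUT piglets, a difference of 1.40 ± 0.43 (SE, p = 0.00493 in limma, exact permutation p = 0.0152, two-sided). The lowest IR piglet, number 1, lay inside the OUT range, and OUT piglets 1 and 2 gave the lowest values of all. SC5D, the sterol desaturase, was at 8.59, 10.27 and 10.57 in IR and at 6.67, 8.71 and 9.85 in OUT piglets, 1.57 ± 0.50 apart. MSMO1, the methylsterol oxidase, was at 10.68, 11.86 and 12.04 in IR and at 7.85, 10.03 and 11.55 in OUT piglets at its brighter probeset (1.82 ± 0.59), and rose by 1.44 ± 0.40 at its dimmer one.

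DHCR7, which makes cholesterol in the last step of the pathway, is named on this array only in the study's own gene list. It was at 7.55, 8.18 and 8.86 in IR and at 3.39, 5.93 and 7.31 in OUT piglets. The groups did not overlap, and the difference of 2.71 ± 0.66 (a 6.54-fold change) held without each array in turn and, at 1.72, without OUT piglets 1 and 2. The dimmer DHCR7 probeset rose by 1.75 ± 0.51, and its call was lost without IR piglet 3 (1.52) and without OUT piglets 1 and 2 together (1.18). The other members of the pathway did not pass the criterion. SQLE, the epoxidase that oxidises squalene, had the widest difference among them, 2.66 ± 1.05 (exact permutation p = 0.0411), with 7.5, 9.44 and 9.97 in IR and 2.99, 7.0 and 9.0 in OUT piglets. The OUT values of SQLE split into 3.17 and 2.99 in piglets 1 and 2, 8.99 and 8.96 in piglets 3 and 4, and 6.40 and 7.6 in piglets 5 and 6. ACAT2, which the study's list names TCP1, differed by 2.0 (exact permutation p = 0.026), HMGCS1, which condenses acetyl groups at the start of the pathway, by 1.53 (p = 0.0649), FDPS by 1.47 (p = 0.0173) and FDFT1 by 1.30 (p = 0.039). HSD17B7, NSDHL and TM7SF2 differed by 0.29 to 0.94.

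The 4 OUT piglets other than 1 and 2 stood closer to the IR piglets in this pathway. Averaged over the 11 genes, the level was 8.36, 9.57 and 9.77 in IR and 6.22, 8.24 and 9.44 in OUT piglets, and the difference was 2.51 among piglets numbered 1 and 2, 0.274 among 3 and 4, and 1.49 among 5 and 6. All 11 genes kept a positive difference without OUT piglets 1 and 2, with a median of 0.64, and none was called. CYP51 then differed by 0.71, SC5D by 0.83 and MSMO1 by 0.87 and 1.15. The calls were also lost without single piglets. CYP51 lost its call without IR piglet 3, 5 or 6 or OUT piglet 1 or 2 (1.06 to 1.36), SC5D without any of IR piglets 2 to 6 or OUT piglet 1 or 2 (1.21 to 1.54), and the brighter MSMO1 probeset without any of IR piglets 3 to 6 or OUT piglet 1 or 2 (1.43 to 1.80).

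Of 13 measured genes for sensing, uptake and export of sterols, INSIG1 rose and the other 12 did not pass. INSIG1 encodes the protein that holds the SREBP carrier in the endoplasmic reticulum when sterol is plentiful, and is itself switched on by SREBP. It was at 11.51, 12.27 and 12.70 in IR and at 8.88, 9.96 and 12.12 in OUT piglets at its brighter probeset, and at 8.21, 9.0 and 9.67 against 2.99, 5.06 and 8.94 at the dimmer. The differences were 2.01 ± 0.48 (p = 0.000646 in limma, exact permutation p = 0.00649) and 3.37 ± 0.99. Only OUT piglet 3 reached into the IR range at either probeset. Both calls held without each array in turn, and without OUT piglets 1 and 2 the brighter probeset was still called, at 1.36, while the dimmer was not (2.18). SREBF2, the gene of SREBP-2, was at 5.95, 6.18 and 6.73 in IR and at 4.79, 5.6 and 6.64 in OUT piglets (0.69 ± 0.28, exact permutation p = 0.0541), and the median of the 13 genes was 0.14.

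The largest fold change among the higher probesets was in SCD, the desaturase that turns saturated into monounsaturated fatty acids. SCD was at 9.79, 9.94 and 11.04 in IR and at 3.01, 7.72 and 8.00 in OUT piglets, so that the lowest IR piglet still exceeded the highest OUT piglet. The difference was 3.57 ± 0.79, an 11.9-fold change (p = 0.000288 in limma, exact permutation p = 0.00216, the smallest that 924 splits of the 12 piglets allow). OUT piglets 1 and 2, at 5.51 and 3.01, widened it, and without them SCD was still called at 2.39. FASN, the fatty acid synthase, was at 7.39, 7.98 and 9.04 in IR and at 4.31, 6.60 and 7.49 in OUT piglets. Its highest OUT piglet, number 3, lay just above its lowest IR piglet, number 1, and the difference was 1.80 ± 0.53. FASN held without each array in turn but was not called without OUT piglets 1 and 2 (1.21).

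ACACA, the carboxylase that commits acetyl-CoA to fatty acid synthesis, rose without overlap of the groups at the probeset that the study's list gives this name. It was at 7.21, 7.40 and 7.84 in IR and at 5.83, 6.43 and 7.03 in OUT piglets (1.07 ± 0.25), and it differed by 1.07, 1.12 and 1.02 among piglets numbered 1 and 2, 3 and 4, and 5 and 6. Its change went just under 2-fold without IR piglet 3 or OUT piglet 3 or 6 (0.96 to 1.0). The probeset that the platform names ACACA was dim (under 4) in both groups and differed by 0.29 (exact permutation p = 0.123). Over the 10 measured genes of fatty acid synthesis, SCD and FASN rose, none fell, and all 10 differences were positive with a median of 0.23 (7 of 10, with a median of 0.20, without OUT piglets 1 and 2). FADS1 (0.42) and the elongase ELOVL6 (1.02, exact permutation p = 0.208) did not pass. The mean level of the 10 genes was 5.67, 5.82 and 6.29 in IR and 4.11, 5.34 and 5.54 in OUT piglets. SCD and FASN are part of this mean, so the gap between the groups cannot be read as a trait of the other genes.

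**Figure D1:**
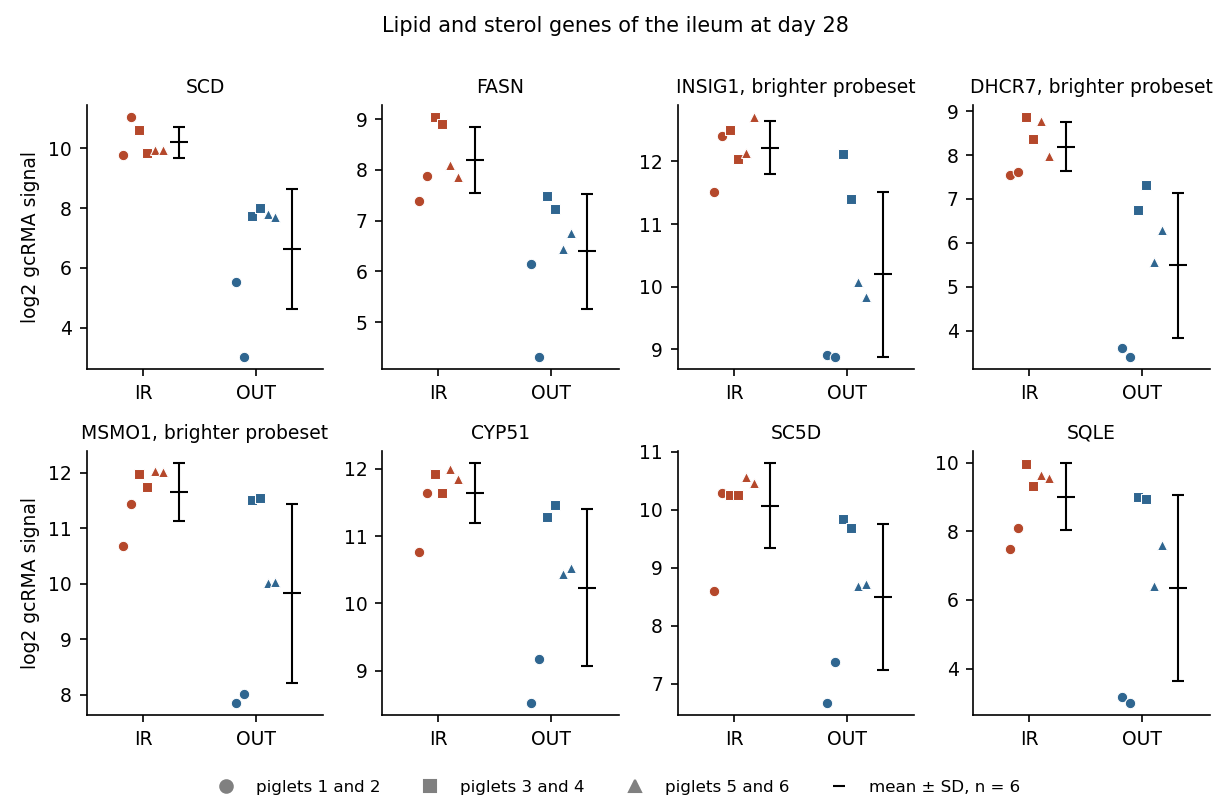
Log2 intensity of genes of sterol and fatty acid synthesis and of their sensor INSIG1 in each piglet at day 28, IR left of OUT, 1 point per piglet with its shape giving the pair of label numbers, and the mean and SD of 6. SCD and DHCR7 did not overlap between groups, and the low OUT points of CYP51, SC5D and SQLE belong to OUT piglets 1 and 2.

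PDK4 had the lowest p of the comparison. PDK4 is the kinase that shuts pyruvate dehydrogenase and so spares glucose, and it is induced by fasting, fatty acids and glucocorticoids. It was at 3.47, 5.08 and 6.17 in IR piglets and at 7.37, 8.45 and 9.61 in OUT piglets. No IR piglet reached the lowest OUT piglet, number 5, and the difference was -3.54 ± 0.53, an 11.6-fold lower level in IR (p = 3.99e-06, adjusted p = 0.0958 in limma, exact permutation p = 0.00216). The second PDK4 probeset was at 1.94, 2.78 and 3.52 in IR and at 4.14, 5.73 and 7.86 in OUT piglets, again without overlap (-3.08 ± 0.67). The drop was found in each pair of label numbers, by 3.91 in piglets 1 and 2, 4.71 in piglets 3 and 4 and 1.99 in piglets 5 and 6. Both probesets stayed called without each array and without OUT piglets 1 and 2 (-3.20 and -2.65).

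PDK4 was the only one of 29 genes of fatty acid oxidation and the fasting response to pass, and none rose. Of the 29 differences 9 were positive and the median was -0.11. ANGPTL4, which inhibits lipoprotein lipase and shares inducers with PDK4, was at 7.12, 7.69 and 8.36 in IR and at 7.62, 8.62 and 10.85 in OUT piglets (-1.23 ± 0.50, exact permutation p = 0.0216), with OUT piglets 1 and 2 highest. The mean level of the 29 genes was 7.91 to 8.11 in IR and 8.18 to 8.43 in OUT piglets. PDK4 is part of this mean, so the gap between the groups cannot be read as a trait of the other genes.

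A list of 16 glucocorticoid-responsive genes, which also holds PDK4 and ANGPTL4, leaned the same way. PDK4 fell, the other 15 did not pass, 12 of the 16 differences were negative and the median was -0.40. FKBP5, a chaperone partner of the glucocorticoid receptor that the hormone induces, was at 8.56, 8.78 and 9.16 in IR and at 8.88, 9.34 and 9.99 in OUT piglets (-0.55 ± 0.20, exact permutation p = 0.013). HSD11B2, the enzyme that inactivates cortisol, was at 4.75, 5.41 and 6.50 in IR and at 6.01, 7.06 and 7.95 in OUT piglets (-1.49 ± 0.61, exact permutation p = 0.0195). The clock gene PER1 differed by -0.63. The mean level of the list, PDK4 included, was 7.89, 8.2 and 8.32 in IR and 8.37, 8.6 and 9.45 in OUT piglets. It was lower by 0.952, 0.556 and 0.273 in piglets 1 and 2, 3 and 4, and 5 and 6. Since PDK4 is part of this mean, the gap between the groups cannot be read as a trait of the other 15 genes. The median was -0.15 and PDK4 alone was called when OUT piglets 1 and 2 were left out.

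Several enzymes of drug and steroid metabolism fell in IR piglets. Of 36 measured genes 3 fell and none rose, 10 differences were positive and the median was -0.22. UGT2B31, a glucuronosyltransferase that couples steroids and foreign compounds to glucuronic acid, was at 3.15, 3.69 and 5.73 in IR and at 4.62, 7.43 and 10.54 in OUT piglets. OUT piglets spread over more than 5 log2 units, from piglet 6 to piglet 3, and only the 2 lowest, 2 and 6, lay inside the IR range. The difference was -3.29 ± 1.01 (p = 0.00453 in limma, exact permutation p = 0.0108), and its size is limited by the dim IR values, whose median was under 4. The study's list names this probeset UGT2B17, and probes of this family can bind several of its members. A second probeset, UGT2B31 by the platform and PDZK10 by the study's list, was at 2.28, 2.56 and 3.60 in IR and at 3.09, 5.32 and 9.07 in OUT piglets (-2.89 ± 0.91) and ranked the OUT piglets in a like way. The brighter lost its call without IR piglet 1, 3 or 4 or OUT piglet 1 or 3 (-3.14 to -2.65), and the dimmer without these or OUT piglet 4 (-2.86 to -2.19). Both were called without OUT piglets 1 and 2 together (-3.43 and -3.18).

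FMO1, a flavin-containing monooxygenase that oxidises nitrogen and sulphur groups of foreign compounds, was at 2.96, 3.99 and 4.47 in IR and at 4.40, 5.74 and 6.69 in OUT piglets (-1.70 ± 0.45, p = 0.00153 in limma, exact permutation p = 0.00433). The groups met only at IR piglet 2 and OUT piglet 6, and the call held without each array. AKR1CL1, an aldo-keto reductase by the platform and LRRC15 by the study's list, was at 2.52, 3.0 and 3.95 in IR and at 3.47, 5.02 and 6.92 in OUT piglets (-1.97 ± 0.59). It lost its call without OUT piglet 2 (-1.61). The epoxide hydrolase EPHX1 differed by -1.81 and was not called. OUT piglets 1 and 2 had the highest levels of the 36 genes on average, and without them 18 of the 36 differences were positive, the median was -0.02 and UGT2B31 alone was called. FMO1 then differed by -1.26 and AKR1CL1 by -1.42.

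Other probesets fell. AGTR1, the type 1 receptor of angiotensin II, was at 4.72, 5.12 and 5.63 in IR and at 5.21, 6.47 and 7.22 in OUT piglets (-1.19 ± 0.30, p = 0.00101 in limma, exact permutation p = 0.0152). OUT piglets 4 and 6 lay inside the IR range, and the call held without each array but not without OUT piglets 1 and 2 together (-0.95). AGTR1 was the only one of 5 measured angiotensin system genes to pass. SLC6A4, the transporter that clears serotonin, was dim in IR piglets at 2.07, 2.50 and 2.64, against 2.45, 3.81 and 4.39 in OUT piglets (-1.18 ± 0.37), and lost its call without IR piglet 3 or 4 or OUT piglet 1, 3, 5 or 6 (-1.13 to -1.01). PMP22, a membrane protein of myelin that is also made by other cells, was at 8.01, 9.51 and 10.14 in IR and at 10.06, 10.38 and 11.33 in OUT piglets (-1.26 ± 0.37), with overlap of IR piglet 1 alone. It lost its call without IR piglet 5 or OUT piglet 3 or 4 (-1.13 to -1.0). The other 2 probesets, which the study's list names only by a protein identifier, fell by 1.68 and 1.18 on the log2 scale, the second without overlap of the groups. Both held without each array but not without OUT piglets 1 and 2 together (-1.09 and -0.85).

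**Figure D2:**
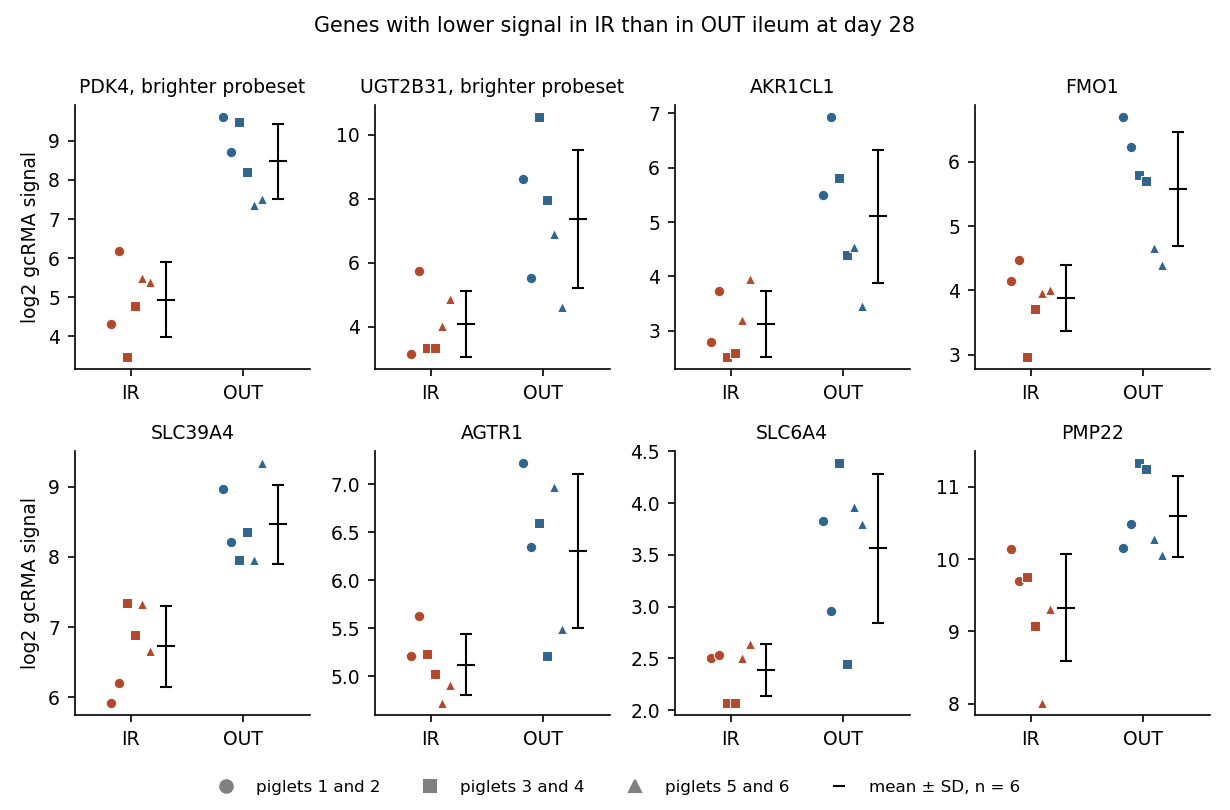
Log2 intensity of probesets that fell in IR piglets at day 28, in each piglet, IR left of OUT, with shapes giving the pair of label numbers and the mean and SD of 6. PDK4 and SLC39A4 did not overlap between groups, while the UGT2B31 values of OUT piglets ran from 4.62 to 10.54.

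Among genes of zinc and iron handling, SLC39A4, the apical importer that takes up zinc from the gut lumen, fell. It was at 5.92, 6.77 and 7.34 in IR and at 7.95, 8.28 and 9.33 in OUT piglets, and the groups did not overlap (-1.74 ± 0.55, p = 0.00556 in limma, exact permutation p = 0.00216). It lost its call without IR piglet 1, 2 or 6 or OUT piglet 1 or 6 (-1.73 to -1.57), and without OUT piglets 1 and 2 together (-1.68). SLC39A4 was the only one of 17 measured genes of iron and zinc handling to pass, and none rose at its brightest platform probeset. Over the 17 genes 7 differences were positive and the median was -0.07.

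Metallothioneins, which bind zinc and copper and are induced by them, were higher in most IR than OUT piglets but did not pass. The probeset named MT1A by the platform and MT1J by the study's list was at 6.64, 11.59 and 13.11 in IR and at 5.61, 5.91 and 11.09 in OUT piglets (3.70 ± 1.53, p = 0.0272 in limma, exact permutation p = 0.0368). The 4 OUT piglets numbered 3 to 6 lay at 5.61 to 6.03 and piglets 1 and 2 at 9.39 and 11.09, while IR piglet 3 alone among IR piglets was near the low OUT values. The difference was 5.19, which passed, without OUT piglets 1 and 2. A second probeset that the study's list also names MT1J, and the platform EF1ALPHA, differed by 2.48 (exact permutation p = 0.0195), and MT3 by 1.65. Probes of this family can bind several metallothioneins, so the members cannot be told apart.

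TFRC, the transferrin receptor through which cells take up iron, differed by more than 2-fold without passing the criterion. At the brighter of its probesets it was at 9.07, 10.83 and 11.71 in IR and at 7.18, 9.26 and 9.51 in OUT piglets (1.81 ± 0.65, p = 0.013 in limma, exact permutation p = 0.0303). IR piglets 1 and 2 lay among the OUT values and the other 4 above all of them, and the difference was 1.87, 1.52 and 2.04 in piglets 1 and 2, 3 and 4, and 5 and 6. The dimmer TFRC probeset was at 2.79, 7.37 and 8.79 in IR and at 2.44, 4.19 and 4.62 in OUT piglets (2.78 ± 1.08). SLC11A2, the importer of ferrous iron, was at 6.90, 7.11 and 7.52 in IR and at 5.82, 6.21 and 6.84 in OUT piglets, without overlap (0.90 ± 0.56, p = 0.126 in limma, exact permutation p = 0.00216). Its SD was 0.243 in IR, 0.394 in OUT and 1.73 in IN piglets, and limma pooled all 3 groups. IREB2 and ACO1, whose proteins bind iron-responsive elements of the TFRC and ferritin messages, differed by -0.51 and 0.18, and the ferritin genes FTH1 and FTL by -0.07 and -0.10.

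Interferon-induced genes were higher on average in IR piglets, and none passed the criterion. All 40 measured genes had a positive difference with a median of 0.87, and 5 had an unadjusted p under 0.05. Averaged over the 40, the level was 7.37, 9.63 and 10.1 in IR and 6.86, 8.6 and 8.88 in OUT piglets. The low IR values, 8.01 and 7.37, were those of piglets 1 and 2, and the low OUT values were likewise those of piglets 1 and 2, so that the difference was 0.671, 1.2 and 0.924 within the pairs of label numbers. Without OUT piglets 1 and 2 alone, 34 of the 40 were positive with a median of 0.36, and without the piglets numbered 1 and 2 of every group, all 40 were positive with a median of 0.85 and 4 passed. Both of these analyses were chosen after seeing the data.

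The spread among piglets was wide for single interferon-induced genes. ISG15, a ubiquitin-like protein, was at 6.95, 12.18 and 12.84 in IR and at 5.74, 11.01 and 12.42 in OUT piglets (1.31 ± 1.62, exact permutation p = 0.398). MX2, an antiviral GTPase, was at 2.82, 6.14 and 7.84 in IR and at 2.55, 3.48 and 4.62 in OUT piglets (2.15 ± 0.90, exact permutation p = 0.0801), where IR piglets 4 to 6 lay above 7 and IR piglets 1 to 3 inside or near the OUT range. A second MX2 probeset was dim and differed by -0.04. IFIT2, which blocks translation of viral RNA, differed by 1.66, 1.24 and 0.71 at its probesets (lowest exact permutation p = 0.247). SOCS1, a brake on cytokine signals, differed by 1.5, the nucleic acid sensor ZBP1 by 1.72 and PARP9 by 0.73. The probeset that the study's list names IFITM3 and the platform RSF1 was at 10.65, 11.67 and 12.59 in IR and at 9.04, 10.04 and 12.22 in OUT piglets (1.40 ± 0.66). IRF7 differed by 1.83 and 0.95 at its probesets, GBP2 by 1.17 and 1.32, ISG20 by 1.22 and IFIT3 by 1.12.

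Class I molecules, which show peptides from inside the cell to CD8 T cells, were higher in IR piglets at a pair of probesets. SLA-8, which the study's list names HLA-G, was at 9.80, 10.27 and 10.70 in IR and at 8.15, 9.26 and 9.80 in OUT piglets without overlap (1.14 ± 0.34, p = 0.00409 in limma, exact permutation p = 0.00216). The difference was 2.27 in piglets 1 and 2, 1.02 in piglets 3 and 4 and 0.12 in piglets 5 and 6, and the call was lost without IR piglet 1 or OUT piglet 1 or 2 (0.95 to 1.04), and without OUT 1 and 2 together it differed by 0.74. The probeset named HLA-B in the study's list was at 11.04, 11.57 and 11.69 in IR and at 9.60, 10.48 and 11 in OUT piglets, also without overlap (1.05 ± 0.33), and differed by 0.93, 1.34 and 0.88 within the pairs of numbers. It lost its call without any of IR piglets 1, 2, 3 or 5 or OUT piglets 2, 3 or 6 (0.88 to 1.04), and was called without OUT piglets 1 and 2 together (1.15). SLA-3 did not overlap either, at 12.27, 12.48 and 12.69 in IR against 10.78, 11.95 and 12.25 in OUT piglets, but its difference was 0.70 (p = 0.0694 in limma, exact permutation p = 0.00216). The gaps were narrow at each of these probesets. For SLA-8 the lowest IR piglet was at 9.804 and the highest OUT piglet at 9.802. Probes of this gene family can bind several of its members.

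Of the 16 measured genes of class I presentation and the immunoproteasome, SLA-8 rose, none fell, and 14 differences were positive with a median of 0.47. The median was 0.22, with 11 positive and none called, when OUT piglets 1 and 2 were left out. PSME1, a proteasome activator that interferon induces, differed by 0.38. None of 12 class II genes passed, although all 12 were positive with a median of 0.34. Their level differed by 0.845 and 0.974 among piglets 1 and 2 and 3 and 4, and by -0.552 among piglets 5 and 6. IFI30, a thiol reductase of antigen-processing vesicles, was at 11.03, 11.27 and 11.83 in IR and at 10.25, 10.79 and 11.14 in OUT piglets (0.58 ± 0.20, p = 0.00913 in limma, exact permutation p = 0.013), short of 2-fold, and SLA-DMA differed by 0.53.

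Macrophage and dendritic cell markers were mostly higher in IR piglets. Of 30 measured markers CD5L and GPNMB rose, none fell, and 28 were positive with a median of 0.32. CD5L, a protein secreted by tissue macrophages, was at 3.05, 5.48 and 7.65 in IR and at 2.55, 2.96 and 3.22 in OUT piglets (2.23 ± 0.70, p = 0.00519 in limma, exact permutation p = 0.00649). OUT piglets were all at dim values, and only IR piglet 2 lay among them. Its call was lost without IR piglet 1, 3 or 4 or OUT piglet 3 (1.74 to 2.16). The dimmer CD5L probeset rose by 1.18 and lost its call without any of 10 arrays, which were IR 1, 3 and 4, IN 4 and 6 and OUT 1 to 5 (0.82 to 1.18). GPNMB, a glycoprotein of lipid-laden macrophages, was at 6.05, 7.95 and 9.44 in IR and at 4.32, 5.64 and 7.68 in OUT piglets (2.04 ± 0.69), where OUT piglets 3 and 6 lay inside the IR range, and lost its call without any of IR 1, 2 and 5, IN 6 and OUT 1, 2, 4 and 5 (1.73 to 2.05). The mannose receptor MRC1 differed by 1.13 (exact permutation p = 0.0303) and the inhibitory Fc receptor FCGR2B by 1.75 (p = 0.026).

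Levels of immune cell markers differed in part with the pair of label numbers. The mean of the 30 macrophage and dendritic cell markers was 7.08, 7.32 and 7.88 in IR and 6.16, 6.92 and 7.36 in OUT piglets, and 6 of them, CD14, CD80, FCGR1A, ITGAM, MARCO and TREM1, were under 4 in all 12 piglets. It differed by 1.28, 0.496 and 0.0502 within the pairs of numbers. Of 15 T and NK cell markers none passed and 14 were positive with a median of 0.65, and their mean was 5.01, 6.10 and 6.75 in IR and 3.69, 5.52 and 6.85 in OUT piglets, with CD4, CD69, CD8B, LAT and PRF1 under 4 in all 12. This T and NK level differed by 2.6, 0.664 and -1.2 within the pairs of numbers, so that its direction turned in piglets 5 and 6. Without OUT piglets 1 and 2 the T and NK median was -0.01 with 7 of 15 positive, and the macrophage median was 0.26 with 21 of 30 positive and none called. CD5L then differed by 2.18 and 1.10 at its probesets and GPNMB by 1.54. The median was -0.06 over 7 B and plasma cell markers and 0.06 over 11 neutrophil, eosinophil and mast cell markers, and none of either passed. The B cell marker CD79B was at 8.02 in OUT piglet 6 and at 2.38 to 3.05 in all other IR and OUT piglets. It was at 9.79 and 9.50 in IN piglets 2 and 6. Enterocyte markers averaged 11.9 to 12.4 in IR and 12.1 to 12.5 in OUT piglets, and none of 17 passed. That mean hides FABP6, which had the lowest difference of the list, -2.27. FABP6 ran from 4.36 to 11.77 in IR and from 8.58 to 13.81 in OUT piglets, with IR piglets 2 and 4 below every OUT piglet. None of 4 genes of bile acid handling passed, with a median of -0.39. The reason for the spread of FABP6 was not tested. The part of cell number in the immune genes was not tested.

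Chemokines recruit such cells. None of 26 chemokine and receptor genes passed at the brightest platform probeset, and 22 were positive with a median of 0.45 (0.23 with 16 positive without OUT piglets 1 and 2). CCL8, which attracts monocytes and T cells, was at 4.35, 4.73 and 7.57 in IR and at 1.59, 3.43 and 4.18 in OUT piglets without overlap (2.14 ± 0.74, p = 0.0104 in limma, exact permutation p = 0.00216). CCL2, the main monocyte attractant, did not overlap either, at 8.74, 9.09 and 9.68 in IR and 5.87, 7.12 and 8.63 in OUT piglets (1.80 ± 0.81, p = 0.0386 in limma, exact permutation p = 0.00216). CXCL9, an interferon-gamma-induced attractant of T cells, differed by 2.65 (exact permutation p = 0.0368), CCL4, which draws monocytes and T cells, by 1.22 and CXCL12 by 0.50 and 0.87. Of 46 cytokine and receptor genes none passed, and 23 of them, among them IFNA1, IFNB1, IL6, IL10 and IL17A, were under 4 in all 12 piglets.

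CCL28, an epithelial chemokine that draws IgA-secreting cells to mucosae, rose at a probeset named only in the study's list. It was at 5.44, 7.77 and 8.53 in IR and at 2.85, 5.67 and 7.30 in OUT piglets (2.06 ± 0.67, p = 0.00706 in limma, exact permutation p = 0.0325), with the lowest IR value in piglet 1 and the lowest OUT values in piglets 1 and 2. The call was lost without any of IR piglets 2 to 6 or OUT piglet 1, 2 or 5 (1.55 to 2.09), and another CCL28 probeset differed by 0.29. Without OUT piglets 1 and 2 together CCL28 differed by 1.09 and was not called. IGHA2, the IgA heavy chain, was at 12.20, 13.12 and 13.49 in IR and at 10.78, 11.47 and 12.43 in OUT piglets (1.36 ± 1.13, p = 0.243 in limma, exact permutation p = 0.00649). Of its IR piglets only number 1 lay inside the OUT range, and its SD was 0.441 in IR, 0.699 in OUT and 3.52 in IN piglets, which limma pooled.

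C4BPA, the alpha chain of the complement inhibitor C4b-binding protein, rose without overlap. It was at 10.73, 11.03 and 11.87 in IR and at 7.79, 9.96 and 10.57 in OUT piglets (1.67 ± 0.56, p = 0.00842 in limma, exact permutation p = 0.00216). The difference was 3.37, 1.40 and 0.22 within the pairs of numbers, and the call was lost without any of 12 arrays, which were all 6 IR, IN 2, 5 and 6 and OUT 1, 2 and 3 (1.33 to 1.75). Without OUT piglets 1 and 2 together C4BPA differed by 0.90 and was not called. It was the only one of 23 measured complement genes to pass, 16 were positive with a median of 0.30, and C3 differed by 0.41 (exact permutation p = 0.0238). HP, haptoglobin, which binds free haemoglobin, was the only one of 29 genes of antimicrobial defence to pass. HP was at 2.38, 4.63 and 5.82 in IR and at 2.37, 2.67 and 3.47 in OUT piglets (1.48 ± 0.49), with IR piglets 1 and 2 at the OUT values, and lost its call without any of IR 3 to 6 and OUT 1, 2, 5 and 6 (1.17 to 1.47), and without OUT 1 and 2 together (1.31).

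**Figure D3:**
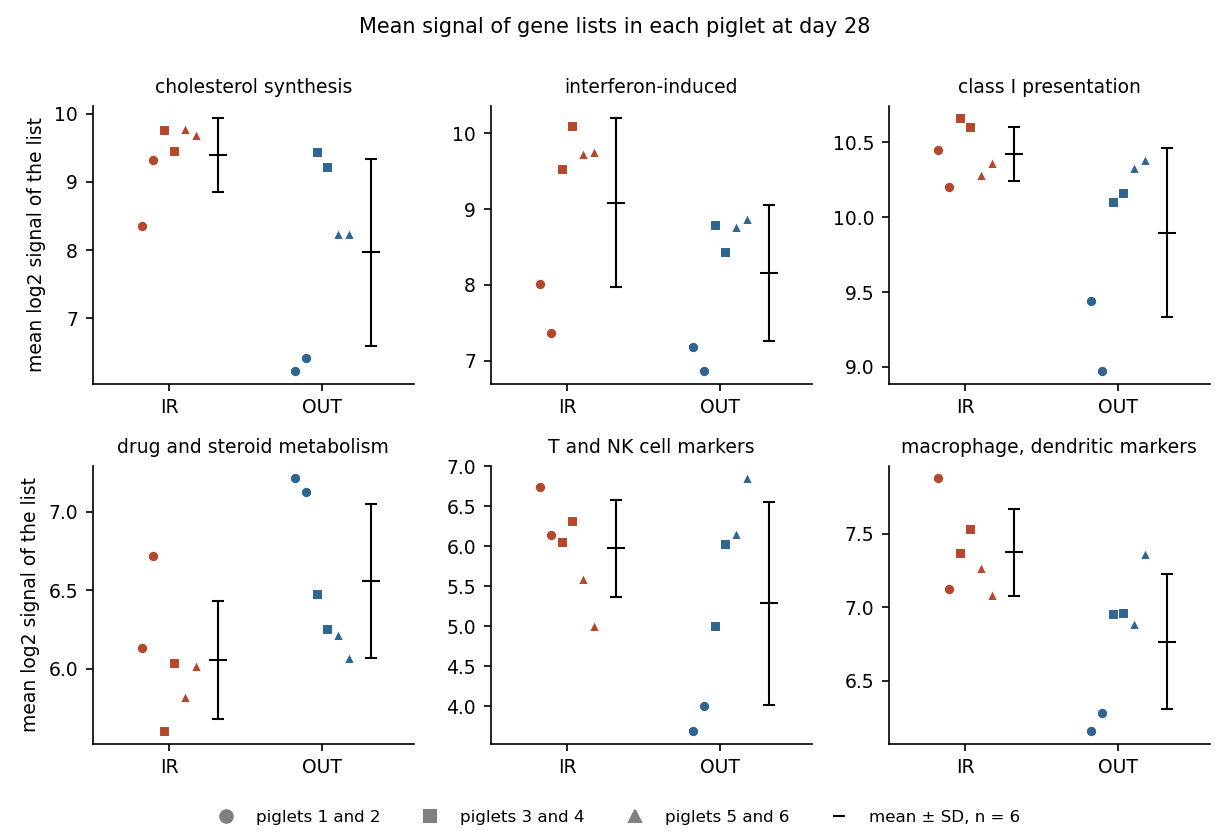
Mean log2 level of 6 gene lists in each piglet at day 28, IR left of OUT, 1 point per piglet with its shape giving the pair of label numbers, and the mean and SD of 6. OUT piglets 1 and 2 (circles) hold the highest values of the drug and steroid metabolism list and the lowest OUT values of the other 5 lists.

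Other named probesets that rose belong to no such group. KMO, which opens a branch of tryptophan breakdown through kynurenine, was at 8.54, 9.81 and 10.30 in IR and at 6.51, 8.68 and 9.55 in OUT piglets (1.24 ± 0.41), with OUT piglet 3 lowest, and lost its call without any of IR 1 and 3 to 6 and OUT 1 to 3 (0.85 to 1.24). FRMD3, a FERM domain protein, rose by 1.63 ± 0.43 and held without each array in turn, but was not called without OUT piglets 1 and 2 together (1.06) or without the arrays numbered 1 and 2 of every group (1.22). ANKRD37, an ankyrin repeat protein, rose by 1.24 ± 0.37, with OUT piglet 6 alone inside the IR range, and lost its call without OUT piglet 1, 3 or 4 (1.11 to 1.15). BTG2, which slows cell division, rose by 1.10 ± 0.32 and went under 2-fold without IR piglet 2 or OUT piglet 5 or 6 (0.93 to 0.99). The probeset with no name rose by 2.47. Without OUT piglets 1 and 2 together, KMO (1.17), ANKRD37 (1.22) and the unnamed probeset (1.96) were not called, while BTG2 was (1.19).

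Proliferation genes turned with OUT piglets 1 and 2. None of 21 passed, 16 were positive and the median was 0.12. Their mean level was 6.43 and 5.62 in OUT piglets 1 and 2 and 8.33 to 8.77 in the other 4, with the IR piglets at 7.17 to 8.14, so that without OUT piglets 1 and 2 none of the 21 was positive and the median was -0.64. None was called in that analysis either.

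Most of the lipid genes and PDK4 also differed between IR and IN piglets. Of the 37 probesets 18 were also called between IR and IN with the same sign, 14 higher and 4 lower. Over all probesets 0.342% were called higher and 0.154% lower in that comparison, which shares the IR piglets with the comparison of IR with OUT. The 18 were both probesets of PDK4, INSIG1, DHCR7 and MSMO1 with SCD, FASN, ACACA, CYP51, SC5D, CCL28, FRMD3, AGTR1, 1 probeset named by a protein identifier and the unnamed one. PDK4 averaged 9.26 in IN piglets, so that IR lay 4.33 below IN and 3.54 below OUT, and SCD lay 3.67 above IN and 3.57 above OUT. Between IN and OUT, which shares the OUT piglets, 2 of the 37 were called with the same sign, GPNMB (IN at 8.22 on average, 2.37 above OUT) and PMP22 (IN 1.61 below OUT), against 0.0625% called higher and 0.129% lower over all probesets. SLC39A4 averaged 6.95 in IN piglets, 1.51 below OUT, while IR lay 0.22 below IN. The IN mean lay between the IR and OUT means for 20 of the 37, and for 15 IR lay farther from IN than from OUT.

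**Figure D4:**
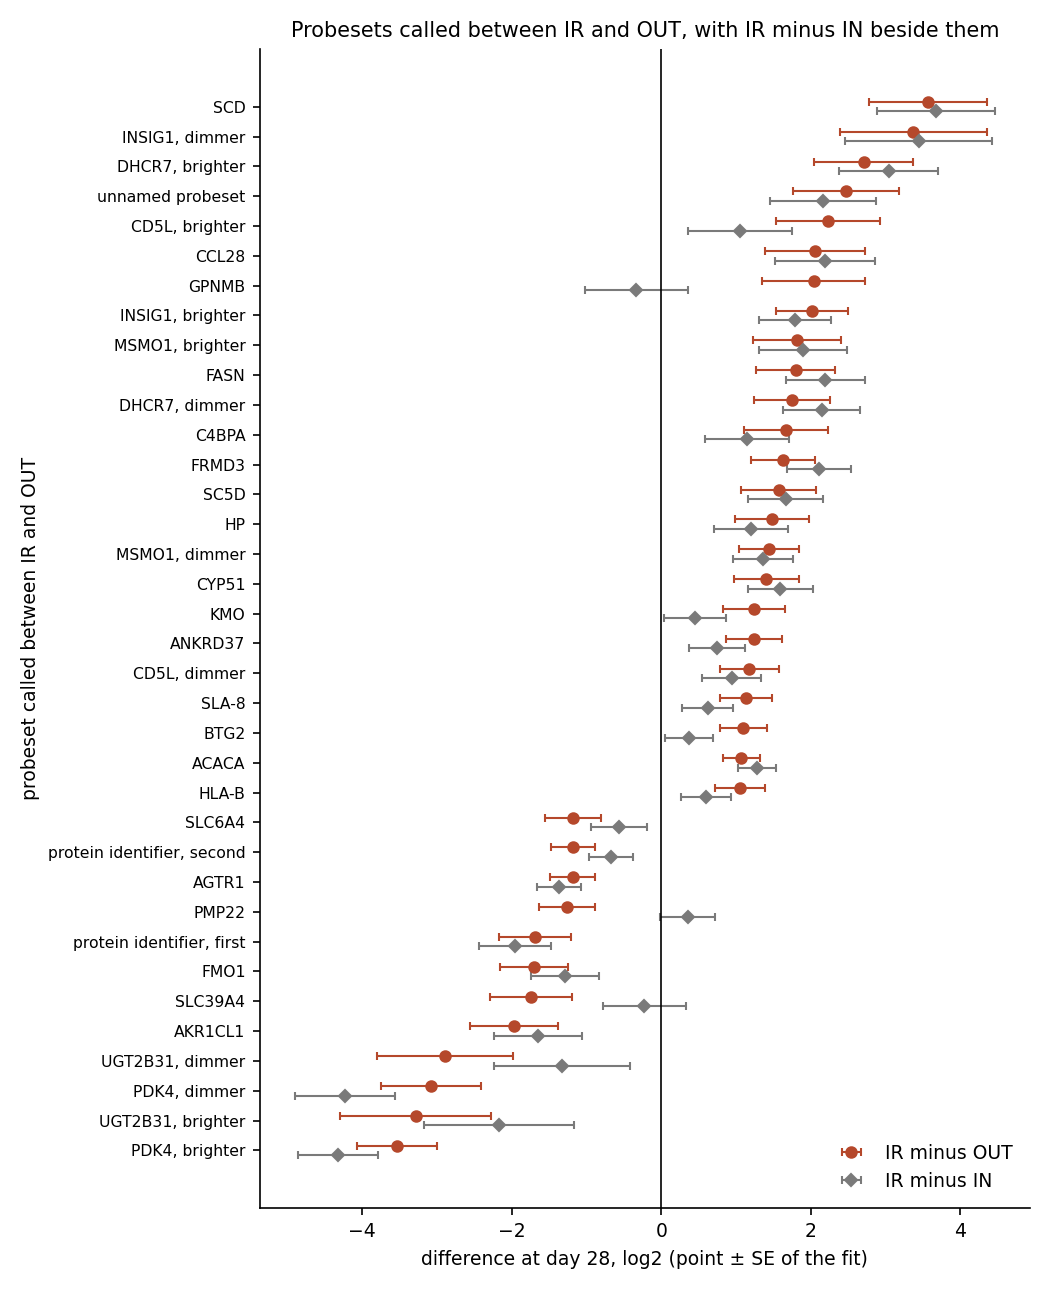
Log2 difference of IR minus OUT at day 28 for 36 of the 37 probesets that passed, with its SE, beside IR minus IN of the same probesets. For PDK4, SCD and FASN both differences lie on the same side at a like distance from 0, while for SLC39A4, PMP22 and GPNMB the difference from IN lies near 0.

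Piglets were also compared by their label numbers taken in twos, since the study raised its piglets in 3 consecutive runs with 2 piglets of each group in a run, although no label names a run. All 37 probesets had a difference of the same sign in piglets 1 and 2, 3 and 4, and 5 and 6, against 21.0% of all probesets. This share was read from the contrast that chose the 37. IR piglet 1 was the lowest of the 6 IR piglets in 11 of the 25 higher probesets, OUT piglets 1 and 2 were the lowest OUT piglets in 9 each, and OUT piglet 1 was the highest OUT piglet in 6 of the 12 lower ones.

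Most of the lipid genes that rose at day 28 were also called higher at day 5. The comparisons at the other days come from a fit of all 9 groups. By the study's methods all piglets were weaned at day 28 and then ate the same creep feed, while IR piglets still received antibiotics. Day 56 thus differs from day 28 in age, weaning and feed at once, and these cannot be told apart. At day 5, 29 of the 37 had a difference of the same sign, 21 higher and 8 lower, and 13 were called with that sign, against 0.283% of all probesets called higher and 0.213% lower at that day. The 13 were PDK4 at 1 probeset, both probesets of INSIG1, DHCR7 and MSMO1, and SCD, FASN, CYP51, SC5D, AGTR1 and CCL28. At day 56, 22 had the same sign, 16 higher and 6 lower, and the 2 PDK4 probesets alone were called, with 0.121% called higher and 0.15% lower over all. SCD was 4.14 above OUT at day 5, 3.57 at day 28 and 1.33 at day 56, and FASN 1.97, 1.80 and 0.48. The brighter INSIG1 probeset was 1.92, 2.01 and 0.23 above OUT, and its difference at day 28 exceeded that at day 56 by 1.78 in the test of the difference itself. PDK4 was 1.67, 3.54 and 1.93 below OUT at days 5, 28 and 56. The median of the 11 cholesterol synthesis genes was 1.57, 1.47 and 0.24.

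The size of the difference was tested between days for all probesets, at the same criterion. In all 49 probesets differed between day 28 and day 5 (0.117% higher and 0.0875% lower at day 28) and 78 between day 28 and day 56 (0.175% and 0.15%), with none after adjustment. An unadjusted p under 0.05 was found for 840 and 987, both fewer than 1 in 20 of those tested. Of the 37 probesets 4 differed from day 5 and 10 from day 56. The day 28 arrays that chose the 37 enter both tests, which favours such passes, so these counts are not independent evidence. UGT2B31 was 3.29 below OUT at day 28 but 0.18 above at day 5 and 0.90 above at day 56, and both tests passed. TFRC was 1.05 below OUT at day 5, 1.81 above at day 28 and 0.06 below at day 56, and SLC11A2 was 0.85 below, 0.90 above and 0.11 above, and both passed the test against day 5. CD5L was 0.03 below OUT at day 5 and 0.20 below at day 56, and both tests against its 2.23 at day 28 passed. CCL8 was 0.31 above OUT at day 5 and 0.52 below at day 56, SLA-8 0.36 above and 0.28 below, and both passed the test against day 56. The median of the interferon-induced genes was 1.11, 0.87 and -0.25 at days 5, 28 and 56, with 1 of the 40 passing the test against day 56 and none against day 5.

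**Figure D5:**
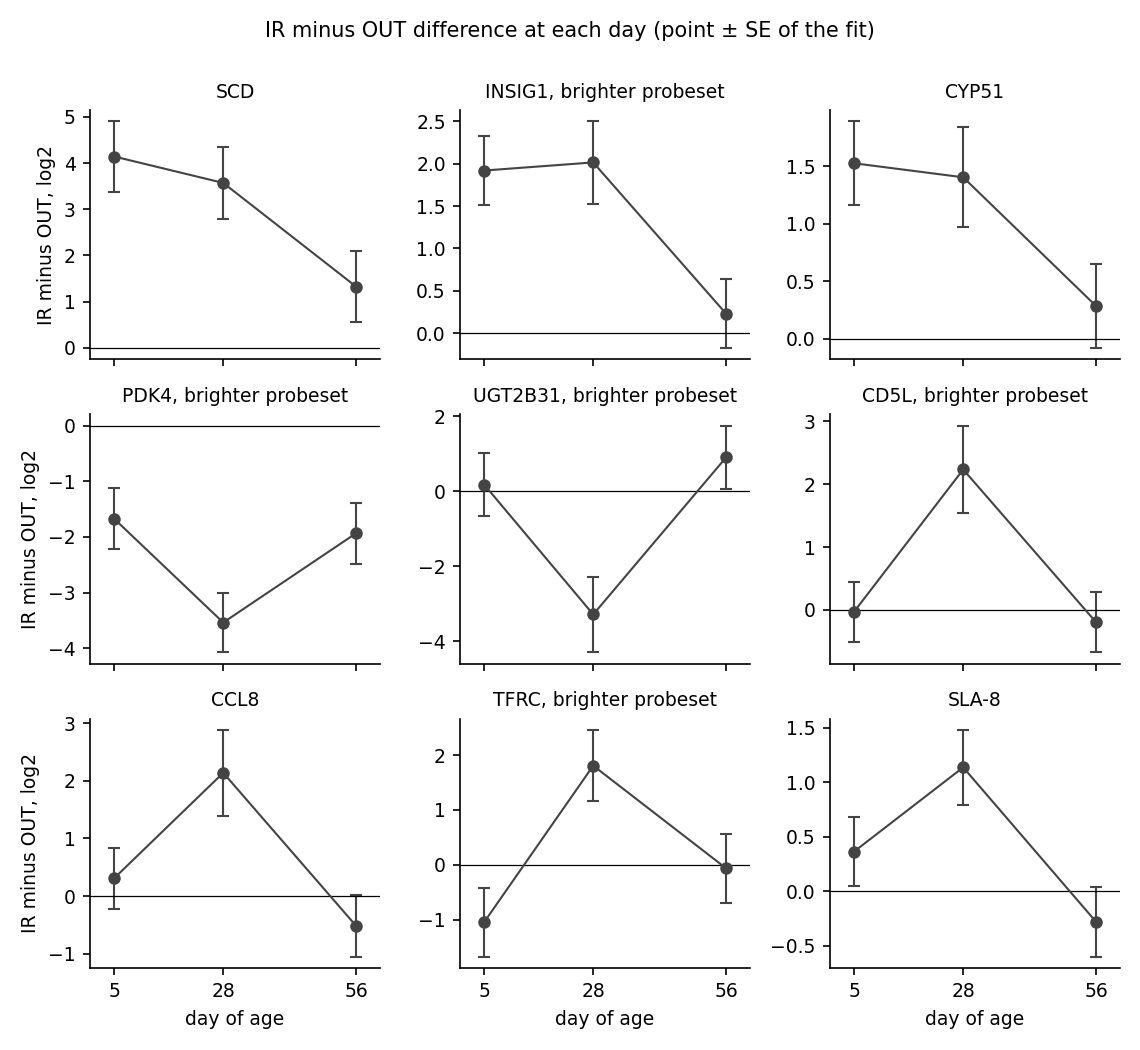
Log2 difference of IR minus OUT at days 5, 28 and 56 with its SE, 1 panel a gene, from the fit of the 3 groups at day 28 and of 9 groups at the other days, with the line at 0 marking equal levels. The SCD and INSIG1 differences lie far above 0 at days 5 and 28, that of PDK4 lies below 0 at each day, and those of CD5L and UGT2B31 lie near 0 at day 5.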

How the data were processed

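Ileal RNA of each piglet was hybridised to an Affymetrix GeneChip Porcine Genome array. The authors scanned the arrays with GCOS 1.2 and deposited log2 values made with GCRMA, a method that corrects background, quantile-normalizes and summarises probes into probesets, and these values range from -0.26 to 14.72. These deposited log2 values were used unchanged, and 0 value columns were left without a sample. Of 24123 probesets 124 controls were left out. Of the 23999 tested, 10069 carry 1 platform symbol (6765 different), 198 carry several and 13732 none. Of those without a symbol, 132 were named from the study's gene list, and 65 with a symbol carry another name there. Neither detection calls nor fold changes of the authors were used.

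Differences were tested with limma 3.58.1 (lmFit and eBayes) in R 4.3.3 over the 3 groups of day 28, without a block, since the replicate run that the study's methods block on is in no label. Probesets were called at an unadjusted p under 0.01 where the change reached 2-fold, and also by Benjamini-Hochberg adjustment at 0.05. Single genes were also tested by an exact, two-sided permutation over all 924 splits of the 12 piglets, and differences between days by contrasts in a fit of 9 groups. Tables and figures were made in Python 3.11.15 with pandas 2.3.3 and matplotlib 3.10.9. The test was checked on simulated data. Genes of lists were taken at their brightest probeset, and a value under 4 was called dim. Alternatives were blocks by label number, only IR and OUT, all 9 groups, array weights, robust variances with an intensity trend, a second quantile normalization, centring on array medians, dim probesets left out (12701 kept), a wider criterion and each array left out.

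Named genes were those the study names for this comparison, every called probeset with a name, all members of the cholesterol, fatty acid synthesis and iron and zinc lists, up to 4 members of each other list with the smallest p, and the 10 smallest p of a fit with a block. A pair of probesets that this rule names, 1 of them called, is not reported here, though counts over all probesets and lists include both. The comparison, the gene lists and the tests were chosen with earlier results of these data known.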

Additional observations from a re-analysis of the deposited data

Results flagged for a closer look

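In 11 of 180 groups of 6 piglets, taken over the 90 probesets of the text, 1 piglet lay far outside the other 5, and chance alone would set apart about 1 in 20. IR piglet 1 was low in 4 of them, all genes of cholesterol synthesis, with CYP51 at 10.8, FDPS at 10.5, NSDHL at 6.81 and SC5D at 8.59. IR piglet 2 was low for KMO (8.54) and PARP9 (9.29) and high for ACO1 (12.1). IR piglet 3 was high for IREB2 (8.58) and IR piglet 6 for the dimmer UGT2B31 probeset (3.6). OUT piglet 2 was high for MT3 (5.28) and OUT piglet 6 for the dimmer CD5L probeset (3.7).

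For 22 differences the test between days passed the unadjusted criterion, and none passed adjustment over all probesets in limma. Many of these probesets were named for their difference at day 28, which is part of the test. Against day 5, the difference of IR minus OUT at day 28 was greater by 2.856 and 3.654 for the TFRC probesets, 2.265 for CD5L, 1.871 for FCGR2B, 1.844 for MRC1, 1.755 for BTG2 and 1.752 for SLC11A2, and it was more negative for UGT2B31 (-3.464 and -3.157). Against day 56 it was greater by 2.656 for CCL8, 2.432 and 1.386 for CD5L, 2.126 for FCGR2B, 2.063 for CCL28, 1.781 for INSIG1, 1.415 for SLA-8 and 1.161 for IFI30. It was more negative for UGT2B31 (-4.187 and -3.782), AKR1CL1 (-3.555), SLC6A4 (-1.638) and FMO1 (-1.604).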

How the results depend on the processing

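Of the 36 called probesets of the text 4 kept their call in every alternative (the brighter probesets of DHCR7, INSIG1 and PDK4, and SCD), 14 kept it without each of the 18 arrays, and none changed sign. With arrays left out in turn the count ranged from 24 (without OUT piglet 1) to 47 (without IR piglet 2), and the higher probesets from 16 (without IR piglet 3 or OUT piglet 1) to 32. Without OUT piglets 1 and 2 together there were 33 calls, 51.5% of them higher against 67.6% with all arrays, and without the arrays numbered 1 and 2 of every group 57, of which 41 were higher and 13 shared. The count was 65 (43 higher, 22 lower) in the fit of all 9 groups, where both PDK4 probesets passed adjustment (2 probesets, lowest adjusted p = 0.00115 in limma). PDK4 alone passed adjustment (1 probeset) with dim probesets left out (adjusted p = 0.0333), array weights (0.0354) and an intensity trend with robust variances (0.0352), all in limma. A wider criterion of p under 0.05 and 1.5-fold gave 217, 142 higher and 75 lower. Renewed quantile normalization gave 37 calls and median centring 38.

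The study's methods block on the replicate run, which no label names, so runs could be approached only by label number, and the numbers did not strictly pair the piglets. IR and OUT piglets of the same number correlated in their deviations at -0.0452 to 0.455, with 4 of 6 over 0.1, piglets of the same pair of numbers but another number at a median of 0.204, also with 4 of 6 over 0.1, and piglets of other pairs at a median of -0.132, with 5 of 24 over 0.1. IN and OUT piglets of the same number correlated at -0.433 to -0.218 for numbers 1 to 5 and at 0.68 for number 6. OUT piglets 1 and 2 correlated at 0.331 to 0.499 with IN piglets 3 to 5, which carry other numbers. With IN piglets 1, 2 and 6 they did so at -0.573 to -0.2275. IR and IN piglets of the same number did so at -0.137 to 0.16. With the replicate number as a block there were 35 calls, 29 of them shared, and with a block by numbers in twos 37, of which 33 were shared. Fitted on IR and OUT without IN, the block by numbers in twos gave 111 calls, 83 higher and 28 lower, 34 of them shared, against 48 without the block. There 1 probeset, the brighter of TFRC, passed adjustment (adjusted p = 0.00715 in limma). The dimmer CD5L probeset, GPNMB and KMO lost their call there. By gene at the brightest probeset, that fit called 8 of 11 genes of cholesterol synthesis (3 in the fit of 3 groups without a block), 8 of 40 interferon-induced genes (0) and 4 of 26 chemokine genes (0), all higher, against 46 of all 6765 named genes called higher (15).

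Among 54 probesets of the text that were not called, 26 were called in 1 or more alternatives and 4 changed sign. The second CCL28 probeset ranged from -0.14 to 0.62 with arrays left out (-0.13 without IR piglet 5), and was -0.43 without OUT piglets 1 and 2 and -0.41 without the arrays numbered 1 and 2. Leaving out OUT piglets 1 and 2, 1 IFIT2 probeset differed by -0.14 and ISG15 by -0.43. The second MX2 probeset ranged from -0.0918 to 0.00998 (without IR piglet 2) and was 0.0321 without the arrays numbered 1 and 2. Between days, leaving out OUT piglet 3 of day 5 gave 32 differences against day 5 and 122 against day 56. Why these counts moved was not tested. Dim signal limits the size of 12 called differences whose lower group had a median under 4, those of SLC6A4, HP, FMO1, AKR1CL1, both probesets of UGT2B31 and CD5L, the dimmer ones of PDK4, DHCR7 and MSMO1, and the unnamed probeset.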
